A study of Rattus norvegicus with 12 samples.

Results

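A processed pseudogene is a copy of a spliced messenger RNA that was written back into the genome, so it resembles the exons of its parent gene joined end to end and usually lacks the introns and the promoter of the parent. Genes that are transcribed strongly in the germ line, above all those for ribosomal proteins, have left many such copies. A short read from the parent transcript can match the copy equally well, and the counting step then divides reads between both rows of a count table. Such a row is therefore read here beside the row of its parent.

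The rows described were chosen by their symbol and by their measured abundance, as those whose rat gene symbol ends in -ps and a number, with a summed count of 20 or more over the 12 libraries. Of 30562 rows in the count table, 463 carried such a symbol. In 272 of these every library had 0 counts, in 65 the summed count was 1 to 19, and 126 passed, under 124 distinct symbols. Since they were selected on the summed count, their abundance is given as a description. The rows just inside the threshold were Eef1g-ps9 and Uqcc1-ps1 with 20 counts each and Mob1a-ps1 and Ndufa3-ps3 with 21, and those just outside were Rpl36-ps3 with 19 and Ranbp1-ps2 with 18. Because the mild-hypo-OPC libraries were deeper, 121 rows would have passed on those libraries alone and 93 on the standard OPC libraries alone.

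The study compared bulk RNA-seq of wild-type oligodendrocyte precursor cells (OPCs), cultured from the cortex of newborn Sprague-Dawley rats, after mild hypoxic preconditioning and without it. The 6 mild-hypo-OPC libraries came from cells kept at a fraction of inspired oxygen (FiO2) of 5%, for 6 hours according to the labels, whereas the methods of the study give the exposure in days. The 6 standard OPC libraries came from cells kept in room air. The labels do not say that the 6 libraries of a group came from separate cultures, and a figure legend of the study names fewer biological replicates per group than the libraries deposited, so p-values measure the spread between libraries, which may be technical.

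Total counts ran from 4111669 to 9022324 in mild-hypo-OPC and from 1356079 to 2797513 in standard OPC, with no overlap, so depth and condition cannot be told apart. Ribosomal RNA rows held 17.4% to 25.3% of the counts in mild-hypo-OPC and 23.9% to 38.4% in standard OPC. The 8 OPC lineage markers were all detected, with summed CPM (counts scaled to a library of 1e+06) of 13010 to 15420 against 7487 to 11250. The 5 astrocyte markers summed to 657 to 797 CPM against 399 to 509, the 5 microglial markers to 29.7 to 47.0 against 8.85 to 23.96, and the 5 neuronal markers to 137 to 167 against 63.8 to 104. The 5 endothelial and mural markers stayed at or below 2.67 CPM, with Cldn5 and Cdh5 at 0. These CPM were taken on the total counts, ribosomal RNA rows included, without the TMM factors used further below. On that scaling the median log2 fold change of all rows was 0.42, so a higher sum does not by itself mark a list out. The part of these marker differences in the results was not tested. In bulk samples fewer cells of a type and less RNA per cell cannot be told apart.

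The 126 rows held 147215 counts in all, and the 3 most abundant held 29.7% of them and the first 10 held 64.6%. The most abundant was Rps20-ps10 with 18009 counts, a copy named for a protein of the small ribosomal subunit. It was followed by Ubb-ps1 (polyubiquitin B) with 13723, Rpl8-ps7 with 12043, Ybx1-ps20 (a cold-shock domain RNA-binding protein) with 10766, Rpl9-ps30 with 9549 and Cycs-ps9 (cytochrome c) with 8347. Rpl37a-ps1, Cdc42se2-ps1, the larger of the Rpl38-ps9 rows and C17h6orf62-ps1 held 6980, 6095, 5285 and 4294. The median row held 225 counts, 38 rows held fewer than 100, and 29 held 1000 or more. Rows named for ribosomal proteins made up 29 of the 126 and held 46.3% of the counts.

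The label was checked against RefSeq annotation of the GRCr8 assembly, matched by symbol, since the counts were made on mRatBN7.2. Of 125 matched rows, 105 were annotated as pseudogenes, 18 as transcribed pseudogenes and 2, Zfp773-ps1 and Rpl6-ps6, as protein-coding genes. The median annotated span was 1393 bases. In 14 rows the span exceeded 5000 bases, which is long for an intronless copy; Ppp1r14b-ps2 and several zinc-finger rows were among them, so the symbol alone does not show that a row is a processed copy. For 34 rows the annotated span lay inside that of another gene, in 31 cases a protein-coding one, and their counts can also hold reads of that gene.

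For 108 of the 126 rows the table also held the parent symbol, and 18 rows, including Rpl37a-ps1, C17h6orf62-ps1, Atp5mpl-ps1 and Hsc70-ps1, had none by this rule. Hsc70 is an older name of Hspa8. The 126 rows named 111 parent symbols, of which the table held 95. A window around the gene start from RefSeq (GRCr8) was at hand for 2 members, and only Rpl6-ps6 also had one for its parent. The pair is shown because it makes the resemblance visible. The capitals mark the longest run common to both windows, 38 bases, which begins just before the ATG start codon of the ribosomal protein L6 gene, and lower case marks the bases before it. Both stretches are on the minus strand.
Rpl6-ps6, chr17:15318475-15318520: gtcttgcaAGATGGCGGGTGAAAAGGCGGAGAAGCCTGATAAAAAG
Rpl6, chr12:41011653-41011698: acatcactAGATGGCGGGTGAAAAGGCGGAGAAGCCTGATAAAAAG

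Of 33469 windows in that table, 2 held this run on either strand, those of the pair. Rpl6-ps6 held 62 counts and Rpl6 held 16992.

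The first question was how the counts of each parent and its pseudogene rows were divided. A family here is a parent with all its -ps rows, and the pseudogene share is the percentage of the family's counts that lies on the -ps rows. It is a share of counts and is not corrected for the length of either row. Over the 95 families the pseudogene rows held 10.7% of the counts, the median family 5.00%, and 16 families less than 1%. In 11 families the pseudogene rows held more than 50%, so that a reader looking up the parent symbol alone would see the smaller part of the family's reads.

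Rpl38, which encodes a protein of the large ribosomal subunit, was the extreme case. The parent row held 4 counts over 12 libraries, while its pseudogene rows held 5674, or 99.9% of the family. The Rpl38-ps9 symbol stood on 3 rows with 5285, 381 and 4 counts. The row with 4 counts, the Rpl38-ps8 row and the parent row carried the same count in every library, 1 in mild-hypo-OPC replicates 2 and 4, 2 in standard OPC replicate 5 and 0 elsewhere. Cdc42se2, a small effector of the GTPase CDC42, held 42 counts against 6095 on Cdc42se2-ps1, a share of 99.3%. Rps20 held 1207 against 18237 (93.8%), Cycs 610 against 8347 (93.2%) and Rpl9 1407 against 9562 (87.2%). Sap18 (74.6%), Rpl8 (73.6%), Hmgb1 (71.8%), Il13ra1 (65.6%), Chchd4 and Zfp748 (53.6%) completed the group.

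In 4 abundant families with most counts on the copy, the group means of the share lay close together. Single libraries ran from 71.3% to 76.3% for Rpl8, 84.2% to 90.8% for Rpl9, 87.9% to 95.4% for Cycs and 90.95% to 94.9% for Rps20. The share of Rps20 was 94.1% ± 0.58 (SD, n = 6) in mild-hypo-OPC and 93.2% ± 1.20 in standard OPC, and that of Rpl8 was 73.5% ± 0.94 against 73.7% ± 1.87. Cycs stood at 93.4% ± 1.15 against 92.9% ± 2.76, and Rpl9 at 87.4% ± 2.15 against 86.6% ± 1.97. Expressed as intervals from inverting the exact permutation test, the difference between conditions lay between -0.21 and 2.12 percentage points for Rps20, -2.12 and 1.69 for Rpl8, -1.95 and 3.16 for Cycs and -1.84 and 3.43 for Rpl9.

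The division also moved from library to library in other families, some of them abundant. The Hsp90aa1 family, with 22247 counts, had shares of 2.85% to 4.55% in mild-hypo-OPC and 2.697% to 11.8% in standard OPC, and the H3f3a family, with 17674 counts, had 5.75% to 7.03% against 3.68% to 11.1%. Hmgb1, a chromatin protein of the HMG-box class, was singled out after its values were seen. Its share ran from 56.4% to 82.8% in mild-hypo-OPC and from 23.3% to 88.9% in standard OPC, where standard OPC replicate 6 held 10 counts on Hmgb1-ps4 and 33 on Hmgb1 and replicate 5 held 86 and 12. The interval of its difference reached from -18.3 to 30.0 percentage points. Il13ra1, an interleukin 13 receptor subunit, ranged from 44.4% to 78.6% in mild-hypo-OPC and stood at 100% in 4 of 6 standard OPC libraries, on 2 to 7 counts of Il13ra1-ps1 each.

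**Figure D1:**
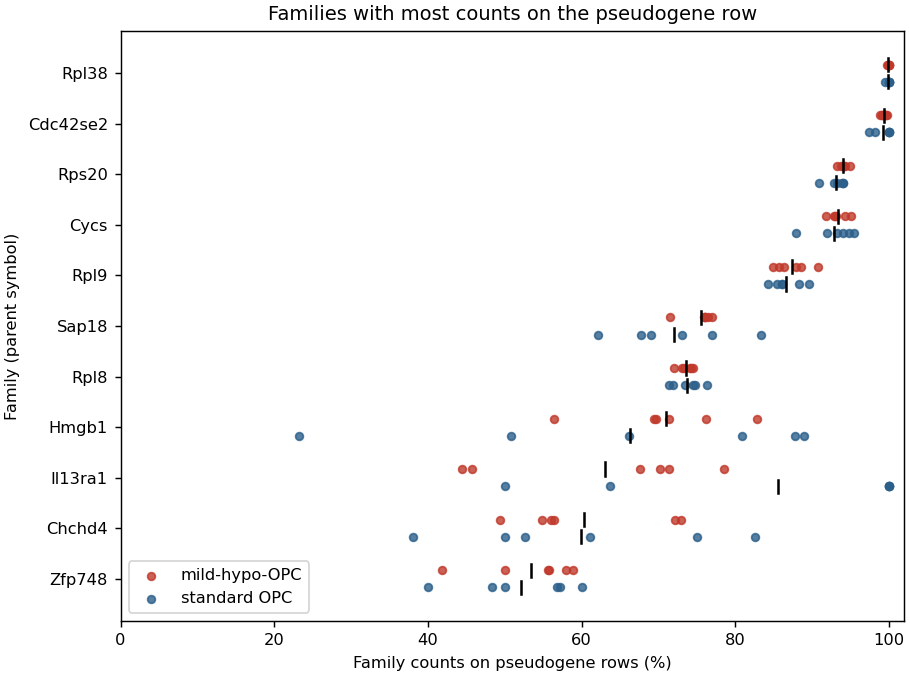
Percentage of family counts on pseudogene rows (x axis) for the 11 families above 50% (y axis, parent symbol), one point per library and a bar at each group mean. Rpl38, Cdc42se2, Rps20, Cycs, Rpl9 and Rpl8 have group means a few points apart at most, and single libraries of Hmgb1 and Il13ra1 spread far more widely than theirs.

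No family passed the test of its share between conditions, a test that 1 family alone could not have passed. The two-sided exact permutation test over all splits of 6 against 6 called 0 of 95 families at a Benjamini-Hochberg adjusted p under 0.05, and the smallest adjusted p was 0.411. With 6 against 6 libraries the smallest p is 0.00216, which adjusts to 0.206 for a single family, and 5 families would have to reach it together to pass. Without adjustment, 2 families had a higher share in mild-hypo-OPC (Hspa8 and Isca2) and 1 a lower one (Ftl1) at p under 0.05. As a log2 ratio of pseudogene to parent counts the numbers were 2 higher and 2 lower with 0.5 added to each count, and 2 higher and 14 lower with 2 added. An added count weighs more in the shallower standard OPC libraries, so the 14 are not read as a result. The median difference was -0.015 with 0.5 added and -0.19 with 2 added. Among 49 families with at least 3 pseudogene counts in every library, 0 were higher and 0 lower in share without adjustment. In no family did all 6 shares of one condition lie on one side of all 6 of the other. The share of Isca2, an iron-sulphur cluster assembly factor, was 4.73% ± 1.65 against 1.74% ± 2.39 (exact p = 0.0346). That of Ftl1, the ferritin light chain, was 0.159% ± 0.080 against 0.268% ± 0.078 (exact p = 0.0476). Zrsr2, a splicing factor of the minor intron class, stood at 35.1% ± 3.89 against 29.3% ± 5.04 (exact p = 0.0541), and Cct6a, a subunit of the cytosolic chaperonin, at 0.918% ± 0.41 against 0.421% ± 0.36 (exact p = 0.0563).

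The second question was how the rows themselves differed between conditions. Of the 126 pseudogene rows, 34 were lower in mild-hypo-OPC by edgeR's quasi-likelihood test (Benjamini-Hochberg adjusted p under 0.05 over all rows tested) and 1 was higher, against 11.6% lower and 5.29% higher of the 13262 rows tested. The median log2 fold change was -0.25 over the pseudogene rows and 0.02 over all rows. In 9 rows all 6 mild-hypo-OPC libraries lay below all 6 standard OPC libraries in scaled CPM, and in 0 rows above, while 3.60% of all rows lay wholly below and 2.65% wholly above. Of these 9 rows 8 were named for ribosomal proteins, and among the other 97 pseudogene rows 1 lay wholly below. Scaled CPM is the CPM on library sizes corrected by TMM factors. Among rows with 1000 or more counts 20 of 29 were called lower, beside 972 of 5428 among all rows of that abundance. From 100 to under 1000 counts 14 of 59 were called lower, beside 486 of 5663 of all rows. With fewer than 100 counts 84 of 2171 of all rows were called lower, and of the pseudogene rows 0 of 38. Of these 38, edgeR gave 3 an unadjusted p under 0.05, all lower, and DESeq2 and limma-voom each called 1.

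The lower rows were mostly named for ribosomal proteins. Of the 29 such rows 22 fell, all 29 had a negative log2 fold change, and the median was -0.97. The 7 that did not pass the test held 39 to 164 counts and had log2 fold changes from -0.996 to -0.63. Of the other 97 rows 12 fell (12.4%, near the share over all rows) and 1 rose (1.03%), with a median log2 fold change of -0.13. With the log2 total count as a covariate 0 of the 29 were called, beside 0 higher and 71 lower of all 13262 rows. In that fit 1 of the 29 had an unadjusted p under 0.05, 21 were negative and the median was -0.17. There the log2 fold change was -0.25 for Rpl9-ps30, -0.10 for Rps20-ps10 and -0.02 for the larger Rpl38-ps9 row. All 20 tested ribosomal protein parents fell as well, with a median of -0.93. Of 87 rows with a cytosolic ribosomal protein symbol and no -ps, 83 fell and 46 lay wholly below in scaled CPM. Members and parents were not compared as independent evidence, since the same reads can reach both.

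**Figure D2:**
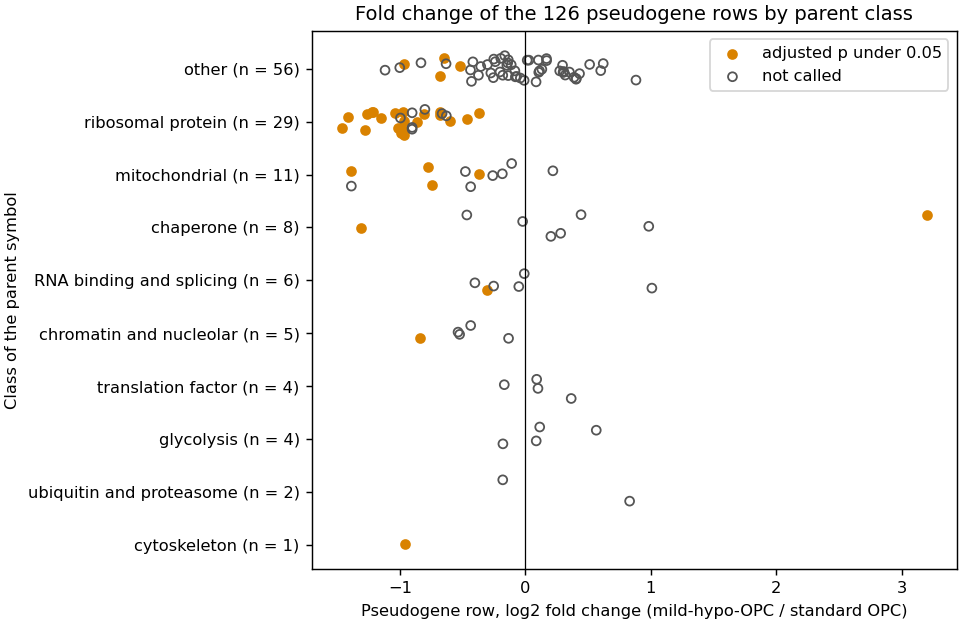
Log2 fold change between mild-hypo-OPC and standard OPC (x axis) of each of the 126 pseudogene rows by class of parent (y axis), filled where the edgeR adjusted p was under 0.05. All 29 ribosomal protein rows lie left of 0, and the single called row on the right is Hspa8-ps22 in the chaperone class.

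Rpl9-ps30, named for a large-subunit protein, had the lowest log2 fold change of the rows. Its scaled CPM was 119, 154, 167, 154, 137 and 170 in mild-hypo-OPC replicates 1 to 6 and 199, 238, 483, 473, 522 and 587 in standard OPC. The groups did not overlap, and standard OPC replicates 1 and 2 lay closest to the mild-hypo-OPC libraries. The log2 fold change was -1.47 (SE 0.19, edgeR adjusted p = 4.5e-05). The parent Rpl9 ran from 12.02 to 28.3 scaled CPM against 23.2 to 94.6, again with standard OPC replicates 1 and 2 lowest in their group, and its log2 fold change was -1.55 (SE 0.25).

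Rps20-ps10 stood at 259, 336, 328, 313, 270 and 406 scaled CPM in mild-hypo-OPC and at 414, 424, 666, 646, 824 and 798 in standard OPC. The highest mild-hypo-OPC library came within 10 scaled CPM of the lowest standard one, without overlap. The log2 fold change was -0.98 (SE 0.15, edgeR adjusted p = 0.000111), beside -1.14 (SE 0.19) for Rps20. Rps27a-ps1, named for a ribosomal protein made as a fusion with ubiquitin, fell by 1.42 on the log2 scale (SE 0.20) from 51.7 ± 20.3 to 18.8 ± 2.76 scaled CPM, and Rps27a had a log2 fold change of -1.24. Rpl26-ps2 fell by 1.26 (SE 0.19) from 40.5 ± 12.9 to 16.7 ± 3.69 scaled CPM, with its lowest standard OPC library, 20.2, inside the mild-hypo-OPC range of 12.5 to 21.9. The log2 fold change of the parent Rpl26 was -0.94.

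Rpl39-ps13 had the lowest p of the pseudogene rows. It ran from 24.1 to 34.7 scaled CPM in mild-hypo-OPC and from 46.8 to 74.1 in standard OPC without overlap, with a log2 fold change of -0.97 (SE 0.12, edgeR adjusted p = 4.0e-05) against -1.23 for Rpl39. Rpl39-ps10, Rpl39-ps11 and Rpl39-ps12 held the same count in each of the 12 libraries, 112 in all on each row, and a row without a gene name, LOC103690821, held these counts too. Their log2 fold change of -0.90 (edgeR adjusted p = 0.116) is therefore 1 measurement listed on 4 rows. Over the whole table, 15 rows with 20 or more counts shared all 12 counts with another row.

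Of the other ribosomal protein rows among the 10 most abundant, all 3 fell. Rpl37a-ps1 fell from 254 ± 79.4 to 123 ± 20.7 scaled CPM (log2 fold change -1.04, SE 0.16) and the larger Rpl38-ps9 row from 185 ± 54.7 to 93.7 ± 13.1 (-0.97, SE 0.15). Rpl8-ps7 had a log2 fold change of -0.46 (SE 0.11, edgeR adjusted p = 0.00554) and Rpl8 of -0.45. For Rpl38-ps9 and Rpl37a-ps1 no parent value could be set beside the row, since Rpl38 was below the count minimum and Rpl37a was not among the symbols of the table.

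Outside the ribosomal class, Ybx1-ps20 stood at 215, 206, 224, 198, 214 and 207 scaled CPM in mild-hypo-OPC and at 307, 262, 241, 257, 240 and 248 in standard OPC. The groups did not overlap, at a log2 fold change of -0.30 (SE 0.08, edgeR adjusted p = 0.0103), and Ybx1 itself had -0.33 (SE 0.08, edgeR adjusted p = 0.00763). Cycs-ps9 fell from 213 ± 36.0 to 164 ± 13.3 scaled CPM (log2 fold change -0.37, SE 0.10, edgeR adjusted p = 0.0103), with 1 library of mild-hypo-OPC, 183, above the lowest of standard OPC. The parent row Cycs, with far fewer counts, had -0.44 (SE 0.23, edgeR adjusted p = 0.201). Ubb-ps1 and Cdc42se2-ps1 did not pass the test, with log2 fold changes of -0.18 (adjusted p = 0.0979) and -0.04 (adjusted p = 0.8002), and neither did C17h6orf62-ps1 with 0.13 (adjusted p = 0.316).

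Rows were classed by the start of the parent symbol alone, so Hsc70-ps1 and Hsc70-ps2 were not counted as chaperone rows. Among the 11 rows classed as mitochondrial 4 fell and 0 rose. These were Cycs-ps9, Ndufs5-ps2 and Ndufv3-ps1, named for subunits of respiratory complex I, and Atp5mpl-ps1, named for a small ATP synthase subunit. Ndufs5-ps2 fell from 84.5 ± 34.6 to 31.6 ± 6.79 scaled CPM. Shares of these small classes lie on few rows and are to be read against the 11.6% lower and 5.29% higher of all rows, to which several are close. Of 8 chaperone rows 1 rose and 1 fell. Of 5 chromatin rows 1 fell, H3f3a-ps9, named for histone H3.3, and 1 of 6 RNA-binding rows, Ybx1-ps20. The single row classed as cytoskeletal, Arpc5l-ps1, fell with a log2 fold change of -0.96. The 4 glycolysis rows, the 4 translation factor rows and the 2 ubiquitin rows did not pass in either direction, with medians of 0.10, 0.10 and 0.33. Of these 10 rows edgeR gave 1 an unadjusted p under 0.05, Ubb-ps1, lower, and DESeq2 called 1. Of the 56 remaining rows 4 fell, Ppp1r14b-ps2, Fcgr2a-ps1, Fth1-ps5 and Sap18-ps1.

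**Figure D3:**
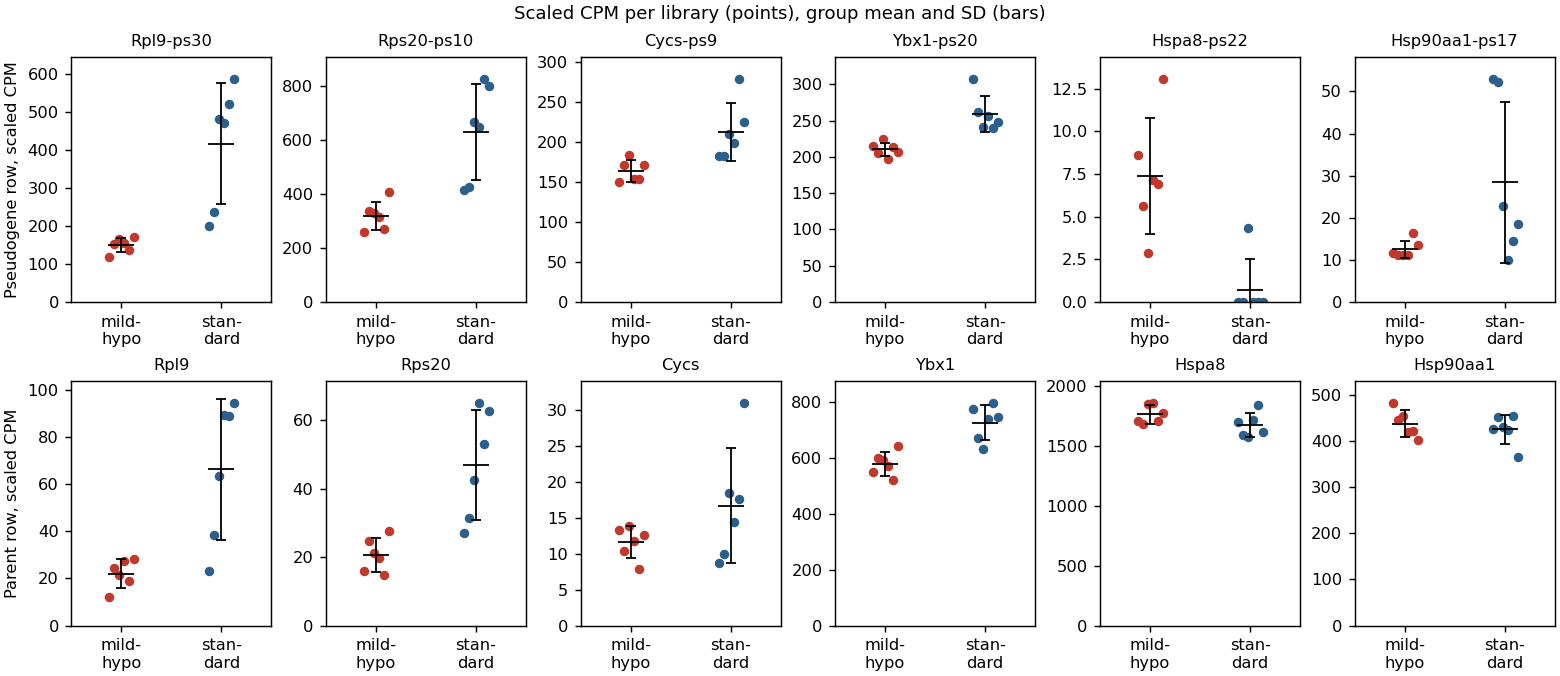
Scaled CPM (y axis) of 6 pseudogene rows (top) and their parents (bottom) in each mild-hypo-OPC and standard OPC library, with the mean and SD of 6 libraries. In the Rpl9, Rps20, Cycs and Ybx1 pairs both rows are lower in mild-hypo-OPC on average, whereas Hspa8-ps22 is higher and Hsp90aa1-ps17 lower on average. Only Rpl9-ps30, Rps20-ps10 and Ybx1-ps20 do not overlap between groups.

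Set beside their parents, 106 pseudogene rows had a tested parent. In 26 pairs both rows fell, in 50 neither was called, in 20 only the parent passed as lower and in 6 only the parent passed as higher. Both rows fell in 19 of 26 ribosomal protein pairs and in 7 of 80 others. In 3 pairs only the pseudogene row was called lower and in 1 only the pseudogene row higher. Passing in one row and not in the other does not show that the rows differ. The log2 fold changes lay within 0.2 of each other in 55 of the 106 pairs and further apart than 1 in 6. Across the pairs the Spearman correlation was 0.72 (n = 106) and 0.86 among rows with 100 or more counts (n = 71). Without the ribosomal protein pairs it was 0.75 among rows with 100 or more counts (n = 48). The values of a pair share libraries, scaling and possibly reads, several pairs share a parent, and the pairs are not independent replicates.

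**Figure D4:**
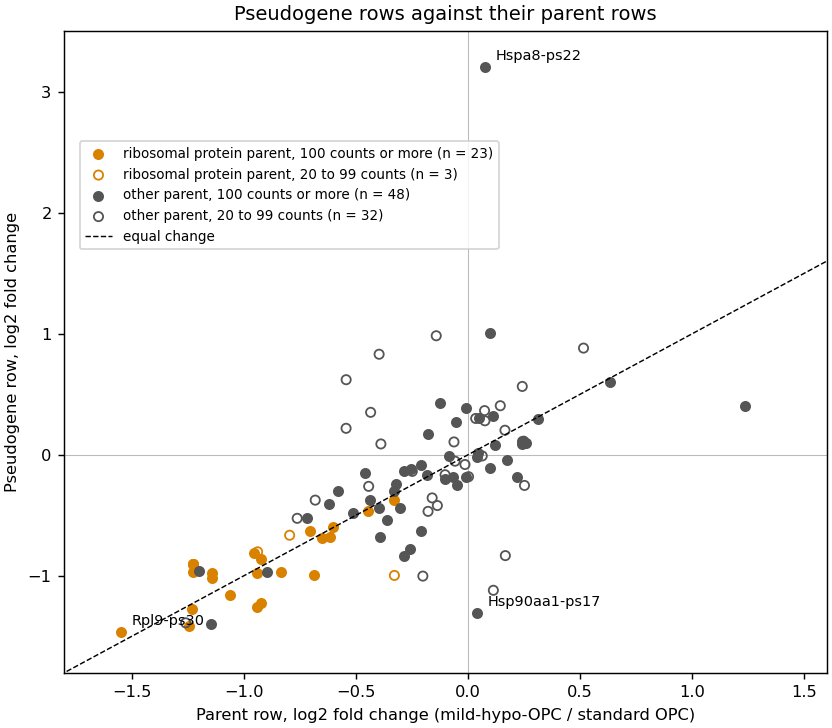
Log2 fold change of each pseudogene row (y axis) against that of its parent (x axis) for 106 pairs, with the line of equal change. Rows with 100 counts or more (filled) follow the line from -1.5 upward except Hspa8-ps22 and Hsp90aa1-ps17 and a few others, and rows with fewer counts (open) scatter more widely.

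Hspa8-ps22 was the one pseudogene row called higher and the only one beyond an absolute log2 fold change of 2. It is named for HSC70, the constitutive cytosolic heat shock protein. Its counts were 83, 32, 18, 35, 42 and 71 in mild-hypo-OPC and 0, 0, 8, 0, 0 and 0 in standard OPC. All of the standard OPC signal thus lay in replicate 3, which in scaled CPM (4.36) exceeded mild-hypo-OPC replicate 3 (2.89). On the standard OPC libraries alone the row would not have met the count minimum. It entered the set through the mild-hypo-OPC libraries, the group in which it was called higher. The log2 fold change was 3.21 (SE 0.64, edgeR adjusted p = 0.00122). With the total count as a covariate it was 3.02, about as large, and no longer called (edgeR adjusted p = 0.252). Within replicates 1 to 3 it was 2.22 (edgeR adjusted p = 0.0853). Within replicates 4 to 6, and without standard OPC replicate 3, the standard OPC libraries were all at 0, and the fitted values of 7.95 (edgeR adjusted p = 3.09e-05) and 7.97 (edgeR adjusted p = 0.00053) depend on the prior count.

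The parent Hspa8 held 83959 counts and overlapped between conditions, at 1682 to 1858 scaled CPM against 1574 to 1842 (log2 fold change 0.08, edgeR adjusted p = 0.555). The other pseudogene row under the current symbol, Hspa8-ps23, held 38 counts and had 0.28 (adjusted p = 0.8001). The pseudogene share of the family was 0.464% ± 0.195 in mild-hypo-OPC and 0.0781% ± 0.119 in standard OPC, a difference of 0.386 percentage points with an interval of 0.184 to 0.592 (exact p = 0.00433, adjusted p = 0.411 over 95 families). This share leaves out Hsc70-ps1 and Hsc70-ps2, named for Hspa8 by its older symbol, with 1462 and 107 counts; the log2 fold change of Hsc70-ps1 was -0.43 (edgeR adjusted p = 0.197). With them, an alternative chosen after seeing the data, the share was 2.15% ± 0.39 against 2.44% ± 1.21 and the difference turned to -0.289 percentage points with an interval of -1.47 to 0.761 (exact p = 0.658). The difference for the family thus depends on which rows are counted as its copies.

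Hsp90aa1-ps17, named for the inducible cytosolic HSP90, fell while its parent did not pass. Its counts were 113, 63, 69, 54, 99 and 74 in mild-hypo-OPC and 139, 100, 42, 11, 22 and 25 in standard OPC. In scaled CPM the mild-hypo-OPC libraries lay between 11.04 and 16.3, while standard OPC replicates 1 to 3 stood at 52.9, 52.2 and 22.9 and replicates 4 to 6 at 9.94, 14.4 and 18.5. The log2 fold change was -1.31 (SE 0.26, edgeR adjusted p = 0.0014), -1.92 within replicates 1 to 3 (edgeR adjusted p = 2.77e-05) and -0.08 within replicates 4 to 6 (edgeR adjusted p = 0.886). Hsp90aa1 had 0.04 (adjusted p = 0.778), and the family share was 3.49% ± 0.70 against 6.71% ± 3.84 (exact p = 0.0563, adjusted p = 0.573). Hsp90aa1-ps17 was the only pseudogene row still called with the total count as a covariate, where its log2 fold change moved to -2.42 (edgeR adjusted p = 0.00922). Within standard OPC the row was highest in replicates 1 and 2, the libraries with the largest totals of that group.

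The third question was what the parent values become when the counts of their pseudogene rows are added. Whether those counts were reads of the parent was not tested. Each parent was summed with all its -ps rows and the edgeR fit repeated. The median absolute shift in the parent's log2 fold change was 0.0079, and in 9 parents it exceeded 0.1. Rps20 moved from -1.14 to -0.99 and Sap18 from -0.72 to -0.58, and both remained called. Il13ra1 moved from 1.24 to 0.66, neither called. Cycs was not called alone (adjusted p = 0.201) and was lower when summed, at -0.39 (SE 0.10, edgeR adjusted p = 0.0100). Ndufv3 likewise became lower (-0.33, edgeR adjusted p = 0.0162), and the higher call of Eif4g1, a scaffold of translation initiation, was lost (edgeR adjusted p = 0.0555). Rpl38, which could not be tested on its own 4 counts, had a log2 fold change of -0.99 as a family (SE 0.15, edgeR adjusted p = 0.00011).

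The summed counts of the 126 rows made up 0.322% ± 0.030 of the total in mild-hypo-OPC and 0.372% ± 0.068 in standard OPC, and the difference of -0.0498 percentage points did not pass (two-sided exact permutation test, p = 0.134). Of the total without ribosomal RNA rows they made up 0.404% ± 0.027 and 0.545% ± 0.104 (exact p = 0.0238). On TMM-scaled library sizes they came to 11.44 ± 0.11 and 12.05 ± 0.27 log2 CPM, which did pass (exact p = 0.00216, the smallest these permutations can give). The rows were admitted on these same counts. Of the counts, 64.6% lay on the first 10 rows and 46.3% on ribosomal protein rows. The summed values are therefore no separate support for the calls of single rows.

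The number of rows seen per library is given without a test, since the rows were admitted on their summed count, of which mild-hypo-OPC supplied 70.9%. Of the 126, a library of mild-hypo-OPC had at least 1 count in 124.0 ± 1.41 and one of standard OPC in 112.2 ± 4.71. Reduced by expectation to the smallest total, the numbers were 115.1 ± 0.95 and 108.5 ± 2.06, at 114.0 to 116.3 against 106.2 to 111.8. Equal totals still left more reads outside ribosomal RNA rows in mild-hypo-OPC. At the smallest total without those rows, chosen after seeing the data, the numbers were 111.6 ± 0.80 and 107.2 ± 2.19.

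**Figure D5:**
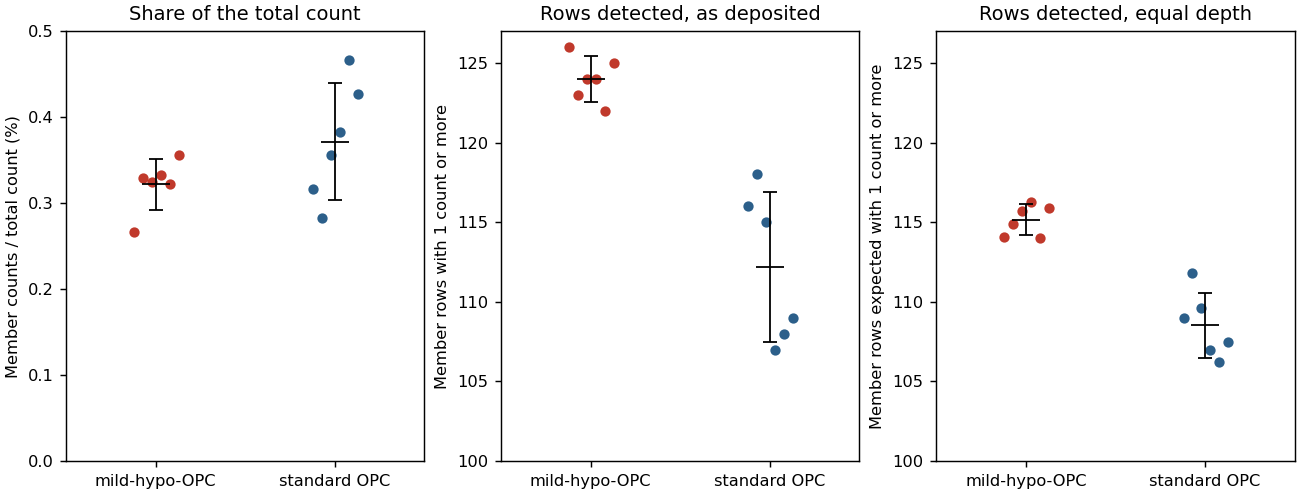
Values per library with the mean and SD of 6 libraries, for the share of the total count on the 126 rows (left), the number of rows with at least 1 count (middle, axis from 100) and the number expected at the smallest total (right, axis from 100). The shares overlap between conditions, and both numbers of rows are higher in every mild-hypo-OPC library than in every standard OPC library.

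Pseudogene rows had a higher median coefficient of variation between libraries of a group than all rows of like abundance. In 7 of 126 rows (5.56%) a library had 0 counts while another of the same group had 10 or more, against 1.98% of all 13262 rows and 0 of 97 parents. These were Hnrnpr-ps2, Ddx21-ps1, Zfp273l-ps1, Hsc70-ps2, Ccnb2-ps2, Prrc2c-ps1 and Eif5-ps1. These 3 sets differ in abundance, and 77 of the 97 parents held 1000 or more counts. Among rows from 100 to under 1000 counts the share was 6.78% against 2.52% of all rows. With fewer than 100 counts it was 7.9% (3 of 38) against 5.4%, and with 1000 or more 0 of 29 against 0.06%. The median biological coefficient of variation from edgeR was 0.256, 0.184 and 0.144 for pseudogene rows with fewer than 100, 100 to under 1000 and 1000 or more counts, beside 0.216, 0.121 and 0.102 for all rows in those ranges. These are descriptions without a test.

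Scaling changed the sign of weakly changed rows. On library sizes without TMM factors the median of all rows shifted to 0.42. There 18 pseudogene rows were called higher and 18 lower, beside 6059 and 495 of all 13262 rows. Only differences relative to that median can be compared between scalings. With the log2 total count as a covariate 0 pseudogene rows were called higher and 1 lower, beside 0 and 71 of all 13262 rows. There edgeR gave 3 and 6 an unadjusted p under 0.05, beside 337 and 668 of all rows.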

How the data were processed

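The authors trimmed reads with Trimmomatic 0.36, aligned them with STAR 2.7.9a and estimated counts per gene with RSEM 1.3.3 on the mRatBN7.2 build, per the labels and the study's methods. The deposited table holds whole-number counts per Ensembl gene and symbol, without normalization. RSEM divides reads that match several genes by estimation, and neither rounding nor the strand setting is stated in the sources used here. The library kit was strand-specific, and 0 columns of the table were left unused.

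Rows with a summed count of 20 or more (13262) were fitted in R 4.3.3 with edgeR 4.0.16 (TMM, glmQLFit, glmQLFTest, condition only) and adjusted by Benjamini-Hochberg at 0.05. Rows whose symbol ends in -ps and digits were set beside the symbol before -ps. Family shares and per-library values were tested by two-sided exact permutation. limma 3.58.1 (voom), DESeq2 1.42.0, other scalings, filters, covariates and left-out libraries were alternatives. Calculations outside R used Python 3.11.15, pandas 2.3.3, numpy 2.4.6 and SciPy 1.17.1, with figures drawn in matplotlib 3.10.9. Fits and permutation tests were run on simulated data to check the code. The simulated family shares varied by sampling alone with many families changed, so this does not measure what the share test could find here. RefSeq annotation (GRCr8) was matched by symbol for biotype and span only, and no coordinates were carried between builds.

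Rows named in the text are the 10 most abundant, the called rows with the lowest p (5 per direction), called rows beyond an absolute log2 fold change of 2, the 6 families with the lowest share p, rows with identical counts, those at the threshold, and their parents. The members and lists were chosen with earlier results of these data known, and further rows named by class or by difference from their parent were chosen after their values were seen.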

Additional observations from a re-analysis of the deposited data

Results flagged for a closer look

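In 96 groups of 6 values, over the named rows, family shares and per-library values, Dixon's test at the 95% level set 6 libraries apart, and chance sets apart about 1 group in 20. Hspa8-ps22 in standard OPC replicate 3 stood at 4.36 scaled CPM with the other 5 at 0, and the pseudogene share of the Hspa8 family there was 0.311% against 0 to 0.0894%. Ybx1-ps20 was highest in standard OPC replicate 1 with 307 scaled CPM, the others lying between 240 and 262. Hsp90aa1 was lowest in standard OPC replicate 6 with 366 scaled CPM, the others lying between 424 and 455. The share of the Ftl1 family was highest in mild-hypo-OPC replicate 5 with 0.309%, the others lying between 0.0741% and 0.160%. The summed share of the total count was lowest in mild-hypo-OPC replicate 1, the deepest library, with 0.267%, the others lying between 0.323% and 0.356%.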

How the results depend on the processing

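Depth did not overlap between conditions, which limits every count of calls. Pseudogene rows called higher and lower numbered 18 and 18 on library size only and 0 and 1 with the log2 total count as a covariate. In replicates 1 to 3 they numbered 0 and 12, and in replicates 4 to 6 they numbered 4 and 29, against 1 and 34. All rows numbered 6059 and 495, 0 and 71, 71 and 465, and 576 and 1293 in those 4 settings, against 701 and 1542. The other scalings, tests and filters gave 1 higher and 28 to 36 lower, beside 407 to 965 and 1153 to 1605 of all rows. A filter of CPM above 10 in 1 library left 55 of the 126 rows to test, and edgeR's filterByExpr left 77. Parents numbered 35 and 19, 0 and 0, 0 and 17, and 1 and 40 in those 4 settings, against 4 and 39, and 2 were higher at the smallest total. Leaving out 1 library gave 1 to 2 rows higher and 26 to 35 lower, and 0 to 6 parents higher and 35 to 44 lower. Of all rows, 499 to 926 were then higher and 1165 to 1669 lower. Without mild-hypo-OPC replicate 2 there were 2 rows higher. Parents higher numbered 0 without standard OPC replicate 3, 1 without standard OPC replicate 5 or 6, and 2 without replicate 1, 4 or 5 of mild-hypo-OPC or without replicate 2 or 4 of standard OPC.

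Family shares gave 0 calls under each alternative run, which says nothing about their stability, since 1 family alone cannot pass after adjustment. Adding the Hsc70-ps rows turned the Hspa8 share difference from 0.386 to -0.289 percentage points. In replicates 1 to 3 or 4 to 6 alone, an exact permutation test of 3 against 3 cannot go below p = 0.1. The summed share differed by -0.140 percentage points without ribosomal RNA rows and by -0.608 log2 CPM on TMM-scaled sizes. Both passed, on rows admitted by these same counts. Leaving out 1 library gave -0.0677 to -0.0309, passing without standard OPC replicate 2 (exact p = 0.0325). Rows detected stayed higher in mild-hypo-OPC in the settings run, on rows chosen largely by its counts.

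Replicate numbers did not pair the libraries: same-number correlations ran from -0.105 to 0.148 and no library correlated best with its own number. With the replicate block 2 pseudogene rows were higher and 32 lower, and 2 parents higher and 41 lower, beside 657 and 1479 of all rows. The summed share kept its difference of -0.0498 (exact sign-flip p = 0.0938). Family shares had no paired value, since the sign-flip test of 6 pairs over 95 families cannot pass.

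On library size only, the log2 fold changes of Cct6a (0.28), Cycs-ps9 (0.0392), Ybx1 (0.0847), Ybx1-ps20 (0.11), Cdc42se2-ps1 (0.38), Ubb (0.35) and Ubb-ps1 (0.23) turned positive, below or near the median of all rows of 0.42. With the total count as a covariate Rpl9 (0.58), Rps20 (0.0416), Rpl8 (0.33), Rpl37a-ps1 (0.10) and Rpl8-ps7 (0.25) turned positive and were not called. Of 943 values of the 40 named rows under the alternatives, these 12 included, 888 kept their side of the threshold without a called value changing sign, 16 gained a call and 27 lost one. The cause was not tested.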
